A study of Mus musculus with 10 samples.

Results

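The insulin-like growth factor (IGF) axis was examined through 10 genes in epithelial cells sorted from the mouse mammary gland. They are the ligands Igf1 and Igf2, the receptors Igf1r and Igf2r, and the binding proteins Igfbp2, Igfbp3, Igfbp4, Igfbp5, Igfbp6 and Igfbp7. Members were taken by gene symbol, and each had exactly 1 probe set that named no other gene. All 10 were measured and all 10 passed the filter on dim signals, out of 19935 genes with such a probe set and 15815 genes that were tested. Their levels are given as log2(intensity + 16) for each array.

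IGF1 and IGF2 are small secreted factors related to insulin that signal through the receptor tyrosine kinase encoded by Igf1r. The receptor encoded by Igf2r takes IGF2 up for breakdown in lysosomes and does not carry a kinase. IGF-binding proteins are secreted, hold the ligands in the fluid around cells, and can block or prolong their action. In the mammary gland IGF1, made largely by the stroma under the control of growth hormone, is needed for growth of the ducts.

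The study hybridised total RNA from 3 Pygo2 SSKO basal samples, 3 control luminal samples and 4 control basal samples, 1 array each. All came from virgin females of 8 to 12 weeks, and SSKO and control animals were littermates kept in shared cages. The labels name the basal sort "SSKO MaSCs" and "control MaSCs", a CD29-high, CD24-positive population of stem and basal cells, and the luminal sort "control Luminal", cells low for CD29, positive for CD24 and lacking CD61. Cells carrying CD31, CD45 or TER119, marks of endothelium, leukocytes and the red cell lineage, were gated out of both sorts. The labels do not expand SSKO, and name neither the promoter nor the cell type that drives the deletion of Pygo2, a cofactor of beta-catenin. They call the samples biological replicates without giving the number of animals behind each, so the p-values reflect sample-to-sample spread, which may be technical. No SSKO luminal sample was analysed here.

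Array medians lay between 205.5 and 228.5 intensity units. Pygo2 was lower in the SSKO arrays, at 6.99, 5.94 and 5.86 in SSKO basal arrays 1 to 3, against 8.30, 9.09, 8.11 and 8.91 in control basal arrays 1 to 4 (limma adjusted p = 0.0441). That call was lost under several alternatives, among them quantile normalization and leaving out control basal array 1, 2 or 4. Whether the Pygo2 probe set lies in the deleted stretch was not determined here. Of the markers listed to check the sorts, 8 of 8 basal markers were lower and 6 of 6 measured mature luminal markers higher in luminal than in control basal cells. Of 5 luminal progenitor markers, Kit, Elf5, Aldh1a3 and Cd14 were also higher there, by 4.68-fold to 8.33-fold, and Itgb3, which encodes CD61, was lower. In SSKO basal cells no marker on these lists was called (limma); the mature luminal markers Krt19 and Foxa1, named after their values were seen, were 2.71-fold (adjusted p = 0.0934) and 2.16-fold (adjusted p = 0.105) above control basal cells. Luminal array 3 stood apart, with a mean basal marker level of 9.50 against 7.87 and 7.32 in luminal arrays 1 and 2. The basal arrays lay between 12.45 and 12.69. Fibroblast markers, which no gate removed, had a mean level of 9.43 to 10.11 in SSKO basal, 7.27 to 7.75 in luminal and 9.60 to 11.01 in control basal arrays. Endothelial markers had a mean level of 8.13 to 10.76 in SSKO basal, 8.03 to 8.45 in luminal and 8.30 to 9.83 in control basal arrays. Of these 12 markers 1, Vwf, was called higher and 1, Cldn5, lower in luminal than in control basal cells. The other 10 were not called, and over all genes 24.6% were called higher and 19.7% lower. In luminal cells the dimmest of the 12 fibroblast markers was Lum, with a mean of 5.66, and the dimmest of the 12 endothelial markers was Kdr, with a mean of 6.72; without detection calls no marker can be said to be at 0.

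The comparison of luminal with control basal cells asked how the IGF axis differs between the sorted layers. Transcripts of 8 of the 10 genes were lower in luminal cells, and 1, Igf2r, was higher. The falls ran over all 6 binding proteins, the kinase receptor Igf1r and the ligand Igf1, and Igf2 did not pass the test. Igfbp3 fell the most, measuring 50.5-fold lower, a size left uncertain by luminal array 2, which lay under 6.74, the mean level below which probe sets were not tested. Igfbp7 was 7.81-fold lower. Over all genes tested, 19.7% were called lower and 24.6% called higher in luminal cells. The median difference of the 10 genes was -2.04 on the log2 scale, beside 0.07 over all genes tested. The luminal arrays lay wholly below the control basal arrays for 8 of the 10 genes (20.5% of all genes) and wholly above them for 1 (25.8% of all genes). In these sorted samples, fewer cells of a type that makes a transcript and less of it per cell cannot be told apart.

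**Figure D1:**
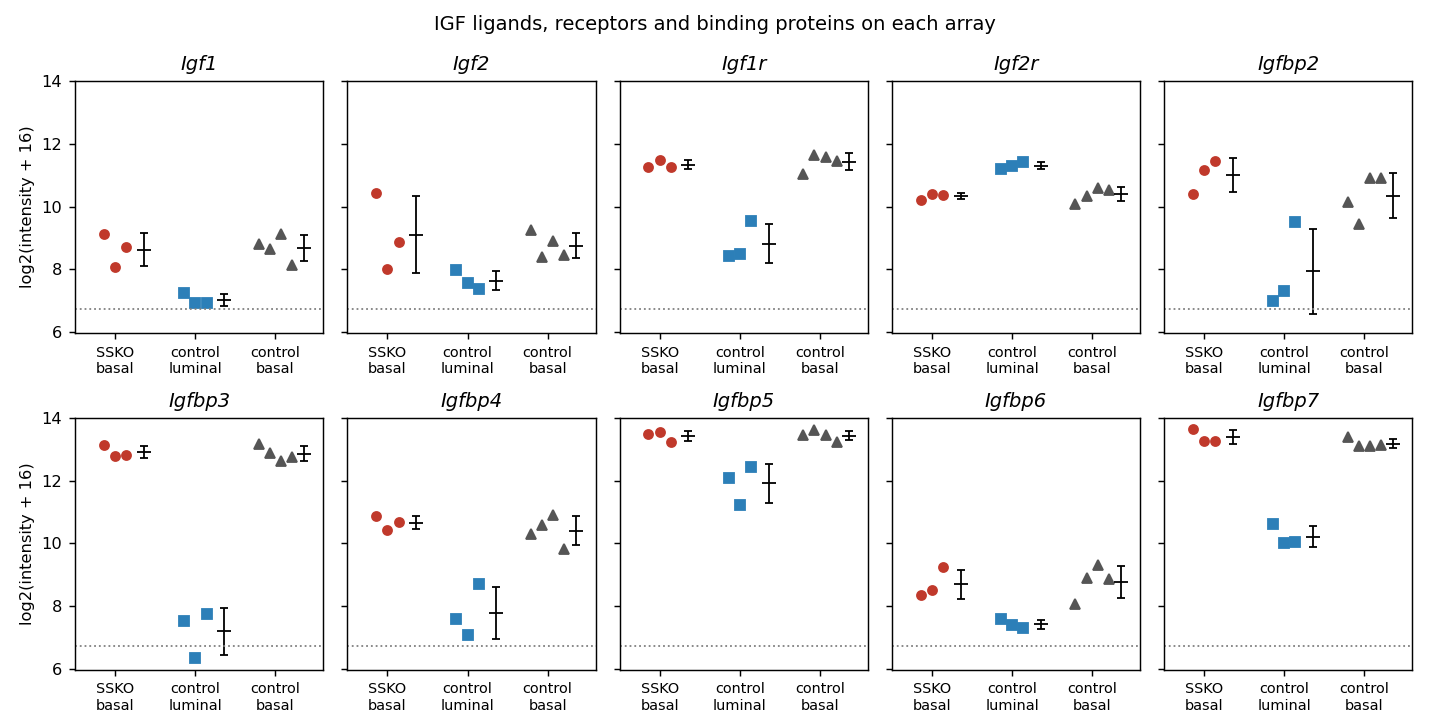
Level of each of the 10 genes on every array, as log2(intensity + 16), with Pygo2 SSKO basal arrays as circles, control luminal arrays as squares and control basal arrays as triangles; the bar beside each group is its mean ± SD (n = 3, 3 and 4), replicates run from left to right, and the dotted line marks 6.74, the mean below which probe sets were not tested. Luminal arrays sit below the basal arrays except for Igf2r, where they sit above, and for Igfbp2, where luminal array 3 at 9.50 lies above control basal array 2 at 9.44.

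Setting SSKO against control basal cells asked whether loss of Pygo2 alters the axis within the stem and basal compartment. No difference was detected in any of the 10 genes. None was called (limma, 0.0379% of all genes were), none had an unadjusted p under 0.05 (3.03% of all genes did), and the SSKO and control basal arrays overlapped for each of the 10 (groups did not overlap for 4.46% of all genes). Of the 10 differences, 5 were above and 5 below 0, with a median of 0.02 beside 0.01 over all genes tested. The intervals set how large a change could have been missed: the narrowest, for Igf2r, ran from -0.37 to 0.24 and the widest, for Igfbp2, from -0.59 to 1.90 on the log2 scale.

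**Figure D2:**
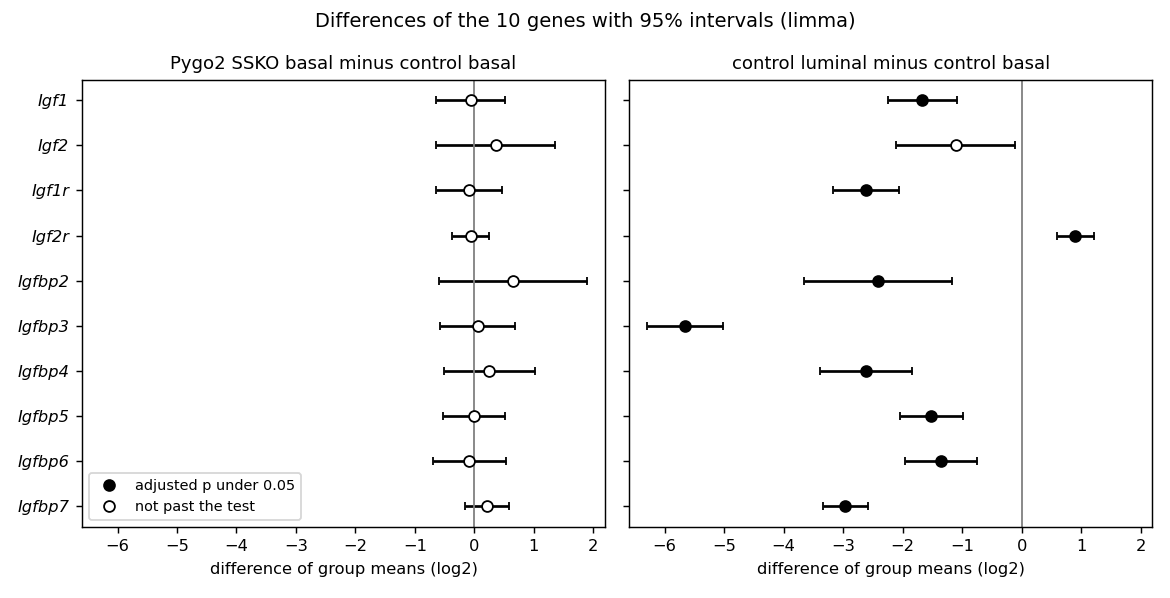
Differences of group means on the log2 scale with 95% intervals from limma, for Pygo2 SSKO basal minus control basal cells (left) and control luminal minus control basal cells (right); filled points have an adjusted p under 0.05. All 10 SSKO intervals cross 0, whereas 8 luminal differences lie below 0 and that of Igf2r lies above it with filled points.

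Promoter windows are printed for the receptors Igf1r and Igf2r, whose luminal differences had opposite signs, and for Igfbp3, which had the largest difference. Each runs from 250 bases before to 50 bases after the annotated start, 5′ to 3′ on the gene's strand, from RefSeq on build GRCm38.p6. Capitals mark matches on either strand to the TATA box (TATAAA), the GC box (GGGCGG), the E-box (CACGTG), the AP-1 site (TGANTCA), the TCF/LEF core (CTTTGA) or the CArG box.
Igf1r, chr7:67952007-67952306, plus strand: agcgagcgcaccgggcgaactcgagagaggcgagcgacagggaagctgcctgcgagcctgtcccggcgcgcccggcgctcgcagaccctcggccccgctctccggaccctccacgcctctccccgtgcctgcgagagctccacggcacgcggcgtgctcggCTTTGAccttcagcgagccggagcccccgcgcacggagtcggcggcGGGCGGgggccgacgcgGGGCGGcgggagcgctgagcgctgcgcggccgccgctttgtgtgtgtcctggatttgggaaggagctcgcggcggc
Igf2r, chr17:12769657-12769956, minus strand: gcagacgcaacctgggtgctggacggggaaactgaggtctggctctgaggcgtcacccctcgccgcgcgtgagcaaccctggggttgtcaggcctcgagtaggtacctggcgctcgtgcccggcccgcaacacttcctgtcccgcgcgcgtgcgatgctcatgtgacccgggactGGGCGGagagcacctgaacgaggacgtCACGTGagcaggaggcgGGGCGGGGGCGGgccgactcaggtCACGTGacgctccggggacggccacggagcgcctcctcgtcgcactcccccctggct
Igfbp3, chr11:7213874-7214173, minus strand: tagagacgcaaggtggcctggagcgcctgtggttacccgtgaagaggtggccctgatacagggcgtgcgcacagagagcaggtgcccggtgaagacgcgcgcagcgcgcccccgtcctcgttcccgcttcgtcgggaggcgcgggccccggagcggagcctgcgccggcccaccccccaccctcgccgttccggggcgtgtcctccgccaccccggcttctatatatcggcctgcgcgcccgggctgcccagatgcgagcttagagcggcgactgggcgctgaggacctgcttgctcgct

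The Igf1r window held 2 GC boxes and 1 TCF/LEF core, the Igf2r window held 3 GC boxes and 2 E-boxes, and the Igfbp3 window held none of the 6 motifs. GC content was 76.0% for Igf1r, 70.7% for Igf2r and 71.7% for Igfbp3. Of the 14 windows of the 10 genes, 6 windows of 5 genes held GC boxes (35.6% of 32817 promoter windows did). TCF/LEF cores were in 3 windows, of Igf1, Igf2 and Igf1r (16%), and E-boxes in 2, of Igf2r and Igfbp2 (7.15%). TATA boxes were in 2 windows, of Igfbp4 and Igfbp6 (13.6%), and AP-1 sites in 2, of Igf1 and Igfbp2 (7.81%). A CArG box was in 1 window, of Igf2 (1.63%). No match of 1 motif overlapped a match of another in these windows. A match describes letters in the window, and says nothing of whether a factor binds there.

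Igf1r, the receptor through which both ligands signal, had log2 levels of 11.26, 11.49 and 11.28 in SSKO basal arrays 1 to 3. In luminal arrays 1 to 3 it had 8.43, 8.48 and 9.53, and in control basal arrays 1 to 4 it had 11.05, 11.66, 11.58 and 11.44. The 3 luminal arrays were the lowest of the 10, and the SSKO arrays lay inside the control range. Igf1r was 6.14-fold lower in luminal than in control basal cells (difference -2.62, SE 0.25, adjusted p = 8.27e-06). The SSKO difference was -0.09 (SE 0.25, 95% interval -0.65 to 0.46). Luminal array 3, the luminal array brightest for basal markers, was also the brightest for Igf1r, and without it the luminal difference was -2.98; the part of basal cells in that array's level was not tested.

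Igf2r, the receptor that clears IGF2 and also sorts lysosomal enzymes, had 10.21, 10.40 and 10.38 in SSKO basal arrays. Its levels were 11.20, 11.28 and 11.42 in luminal arrays and 10.09, 10.35, 10.58 and 10.54 in control basal arrays. Luminal arrays were the 3 highest of the 10. Igf2r was 1.87-fold higher in luminal than in control basal cells (0.91, SE 0.14, adjusted p = 2.77e-04) and differed by -0.06 (SE 0.14) between SSKO and control basal cells. Its luminal difference lay between 0.81 and 0.97 over 21 alternative settings and kept its call in each. Some of these settings cannot move that difference, such as averaging a gene's probe sets or leaving out an SSKO array.

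Igf1, the ligand tied to growth hormone, had 9.11, 8.07 and 8.71 in SSKO basal arrays. It had 7.23, 6.93 and 6.91 in luminal arrays and 8.82, 8.66, 9.14 and 8.14 in control basal arrays. Luminal arrays were the 3 lowest and lay little above 6.74. Igf1 was 3.18-fold lower in luminal cells (-1.67, SE 0.26, adjusted p = 3.51e-04), and the SSKO difference was -0.06 (SE 0.26). Fibroblast markers moved the same way, with 11 of 12 lower and 1, Col6a3, higher in luminal than in control basal cells. Over all genes 19.7% were called lower and 24.6% higher. Over the 7 basal arrays Igf1 had a Pearson correlation of 0.636 with the endothelial and 0.556 with the fibroblast marker level. With the mean level of 7 pericyte markers it was 0.555. Control basal array 3 was the brightest basal array both for those markers (11.01) and for Igf1 (9.14). SSKO basal array 1, the brightest for endothelial markers (10.76), had nearly the same Igf1 level (9.11). Without the 3 basal arrays brightest for those markers, which leaves just 1 SSKO array (8.07), the SSKO difference was -0.58. With the endothelial marker level as a covariate the SSKO difference was -0.30, and with the fibroblast level it was 0.10. The part of fibroblast or endothelial RNA in the Igf1 levels was not tested beyond these fits, and that of pericyte RNA was not tested.

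Igf2, a ligand expressed mainly before birth, had the widest spread among SSKO arrays, at 10.45, 8.00 and 8.88. Levels were 7.97, 7.58 and 7.38 in luminal arrays and 9.25, 8.39, 8.92 and 8.45 in control basal arrays. Although the luminal arrays lay below the 4 control basal arrays, the difference of -1.11 (SE 0.46) did not pass (adjusted p = 0.0705). It passed without SSKO basal array 1 (0.00674) or SSKO basal array 2 (0.0249) and when just luminal and control basal arrays were fitted (0.00436). The SSKO difference of 0.36 (SE 0.46) turned to -0.31 without SSKO array 1 and was 0.91 without SSKO array 2. SSKO array 1 was the brightest of the 10 arrays for endothelial markers (10.76) and SSKO array 2 the dimmest basal array (8.13). With the endothelial marker level as a covariate the SSKO difference was -0.20. Over the 7 basal arrays Igf2 had a Pearson correlation of 0.93 with the endothelial, 0.83 with the pericyte and 0.09 with the fibroblast marker level. The part of endothelial RNA in the Igf2 levels was not tested beyond these fits, and that of pericyte RNA was not tested.

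Igfbp3, the main carrier of IGFs in serum, had 13.13, 12.78 and 12.81 in SSKO basal arrays. It had 7.52, 6.34 and 7.73 in luminal arrays and 13.18, 12.87, 12.63 and 12.74 in control basal arrays. The brightest luminal array (7.73) lay far below the dimmest basal array (12.63). The difference between luminal and control basal cells was -5.66 (SE 0.29, adjusted p = 6.24e-08), and since luminal array 2 lay under 6.74 its full size is not known. The SSKO difference was 0.05 (SE 0.29, 95% interval -0.58 to 0.69). Igfbp1, the nearest coding neighbour of Igfbp3 on chromosome 11, had a luminal difference of 0.26 (SE 0.15) that did not pass (adjusted p = 0.191). Its levels of 6.75 to 7.39 lay little above 6.74 on every array, so a fall like that of Igfbp3 could not have been seen.

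Igfbp7, a secreted protein of the wider family that binds IGFs weakly and is made by vessels among other tissues, had 13.64, 13.27 and 13.27 in SSKO basal arrays. It had 10.60, 10.01 and 10.03 in luminal arrays and 13.38, 13.10, 13.10 and 13.13 in control basal arrays. Luminal arrays were the 3 lowest by a wide gap, with a difference from control basal cells of -2.96 (SE 0.17, adjusted p = 1.52e-07). SSKO array 1 and control basal array 1, the basal arrays brightest for endothelial markers at 10.76 and 9.83, were also the brightest for Igfbp7. SSKO basal arrays 2 and 3 had endothelial marker levels of 8.13 and 9.76 and the same Igfbp7 level of 13.27. Over the 7 basal arrays Igfbp7 had a Pearson correlation of 0.85 with the endothelial, 0.81 with the pericyte and -0.43 with the fibroblast marker level. The SSKO difference was also fitted with the endothelial or fibroblast level as covariate. Beyond those fits, the part of RNA from these cell types in the Igfbp7 levels was not tested. The SSKO difference of 0.21 (SE 0.17) did not pass, and it was 0.088 without SSKO array 1 and 0.28 without control basal array 1.

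Igfbp5, which in mice is induced when the gland regresses after weaning, had 13.48, 13.56 and 13.24 in SSKO basal arrays. It had 12.09, 11.23 and 12.44 in luminal arrays and 13.45, 13.60, 13.46 and 13.23 in control basal arrays. The groups of the 2 sorts did not overlap, and Igfbp5 was 2.86-fold lower in luminal than in control basal cells (-1.52, SE 0.24, adjusted p = 3.29e-04). Its SSKO difference was -0.0074 (SE 0.24, 95% interval -0.53 to 0.52), the smallest of the 10.

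Igfbp2, the coding neighbour of Igfbp5 on chromosome 1 and a binding protein with its own affinity for integrins, had 10.39, 11.17 and 11.44 in SSKO basal arrays. It had 6.99, 7.32 and 9.50 in luminal arrays and 10.13, 9.44, 10.90 and 10.92 in control basal arrays. Luminal array 3 overlapped the control range and was the luminal array brightest for basal markers. Igfbp2 was 5.31-fold lower in luminal cells (-2.41, SE 0.57, adjusted p = 0.00463), and the difference was -3.19 without luminal array 3. SSKO arrays 2 and 3 lay above every control basal array and SSKO array 1 inside their range. The SSKO difference of 0.65 (SE 0.57) was the largest of the 10 and did not pass (adjusted p = 1.00). Leaving out 1 array gave values from 0.35 (without control basal array 2) to 0.96 (without SSKO array 1), and 0.43 without SSKO array 3.

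Igfbp4, a binding protein that holds IGFs from the receptor until it is cleaved, had 10.87, 10.43 and 10.67 in SSKO basal arrays. It had 7.57, 7.07 and 8.71 in luminal arrays and 10.29, 10.58, 10.91 and 9.83 in control basal arrays. Luminal arrays were the 3 lowest, again with array 3 the brightest of them, and Igfbp4 was 6.15-fold lower in luminal cells (-2.62, SE 0.35, adjusted p = 1.02e-04). Its SSKO difference was 0.25 (SE 0.35, 95% interval -0.52 to 1.02), and it was 0.064 without control basal array 4 and 0.42 without control basal array 3.

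Igfbp6, which binds IGF2 in preference to IGF1, had 8.35, 8.50 and 9.23 in SSKO basal arrays. It had 7.58, 7.40 and 7.29 in luminal arrays and 8.07, 8.89, 9.30 and 8.85 in control basal arrays. It was 2.56-fold lower in luminal cells (-1.35, SE 0.28, adjusted p = 0.00196), with a SSKO difference of -0.08 (SE 0.28). Control basal array 3 and SSKO basal array 3 had the highest Igfbp6 levels, 9.30 and 9.23, and were also the brightest of their groups for fibroblast markers, at 11.01 and 10.11. With the fibroblast marker level as a covariate the SSKO difference was 0.15. The part of fibroblast RNA in the Igfbp6 levels was not tested beyond this fit.

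**Figure D3:**
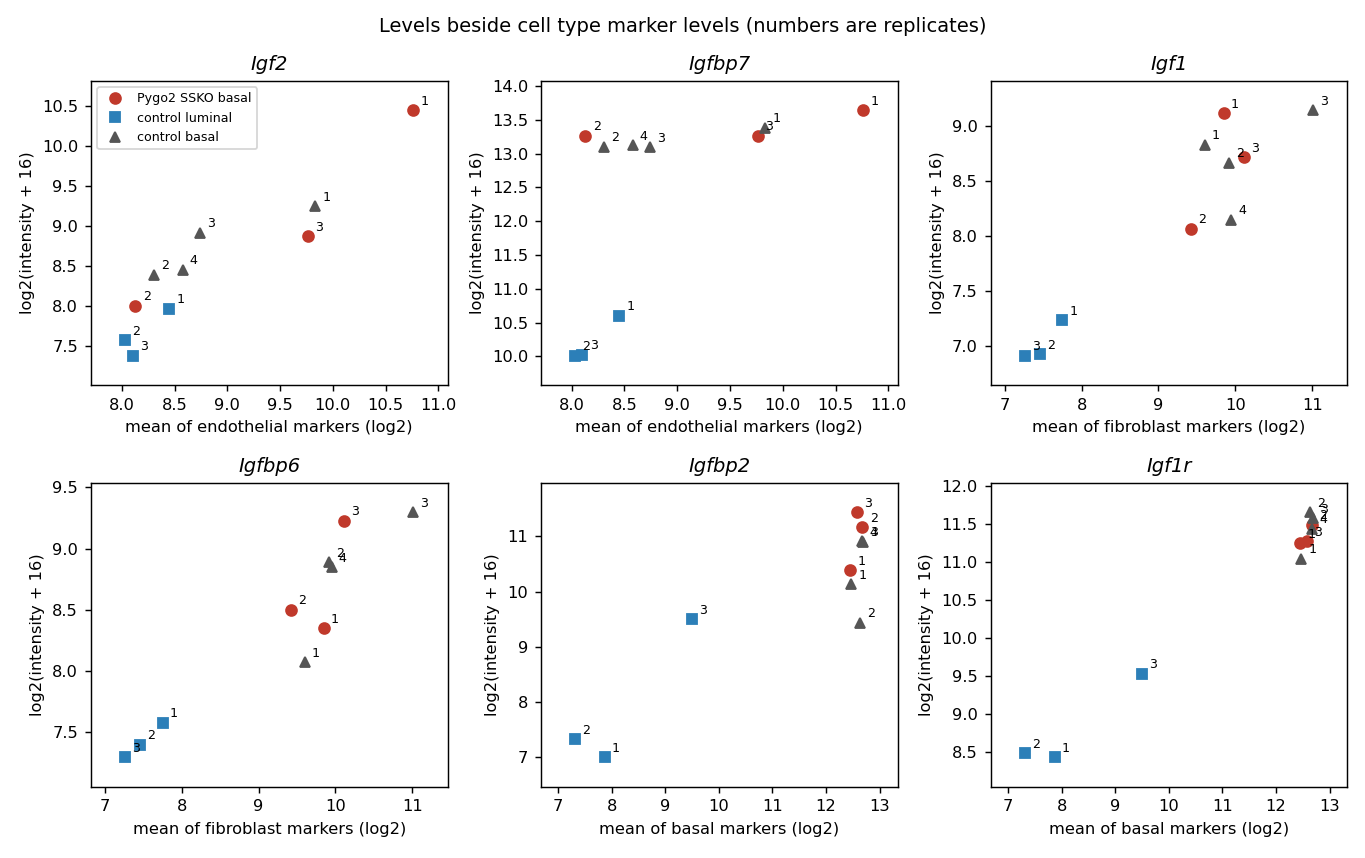
Levels of 6 of the genes, as log2(intensity + 16), against the mean log2 level of a marker list on the same array: endothelial for Igf2 and Igfbp7, fibroblast for Igf1 and Igfbp6, and basal for Igfbp2 and Igf1r; circles are Pygo2 SSKO basal, squares control luminal and triangles control basal arrays, numbered by replicate. Igf2 is highest (10.45) on the array brightest for endothelial markers, and luminal array 3, at 9.50 for basal markers, is the highest luminal array for Igfbp2 and Igf1r.

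For 9 of the 10 genes, all but Igf2r, the order of the group means put luminal cells lowest, with SSKO and control basal means next to each other and not apart beyond their spread. For Igf2r luminal cells were highest and the basal groups again did not differ beyond their spread. The measured fold differences between luminal and control basal cells were smallest for Igf2r (1.87) and largest for Igfbp3, whose full size is not known.

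Genes whose levels followed each member most closely over the 10 arrays are given as a description. The gap between the sorts enters each correlation, and its share was not measured. Igfbp3 was most like Cnn1, a smooth muscle calponin of basal cells (Pearson r = 0.999), and Pmp22 (0.998). Igfbp7 was most like Chst2 (0.997) and Gjc1 (0.994), and Igf1r most like Plce1 (0.997) and Auts2 (0.997). Igfbp5 followed Hs6st1 (0.991) and Igdcc4 (0.990), and Igfbp2 followed Perp (0.981) and Cav1 (0.981). Igfbp4 was closest to Fryl (0.991) and Spem1 (0.987), and Igfbp6 to Vnn1 (0.982) and Mdga1 (0.977). Among the ligands, Igf1 was most like Sgce (0.983) and Colec12 (0.976). Igf2 was most like Esam, an endothelial adhesion molecule (0.982), and Adcy4 (0.973). Igf2r followed Wbp2 (0.992) and Baz2a (0.991).

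Of 40 further genes of the pathway, 35 were measured and tested. Between luminal and control basal cells, 10 of the 35 rose and 7 fell in luminal cells, near the shares over all genes (24.6% higher and 19.7% lower), with a median difference of 0.13 beside 0.07 over all genes. The modulators of the binding proteins held the largest differences of the list. Pappa, the metalloprotease that cleaves IGFBP4 and thereby frees IGF, averaged 5.83 ± 0.23 in luminal cells (SD, n = 3) and 11.08 ± 0.15 in control basal cells (SD, n = 4). Its difference was -5.25 (SE 0.20, adjusted p = 1.27e-08), and as the luminal mean lay under 6.74 the full size is not known. Stc2, a stanniocalcin that inhibits that protease, rose by 3.58 (SE 0.33, adjusted p = 5.76e-06), with means of 12.78 ± 0.44 in luminal and 9.21 ± 0.64 in control basal cells. Htra1, a secreted serine protease, had a difference of -3.86 (SE 0.38, adjusted p = 9.22e-06) whose full size is not known, as luminal array 1 lay under 6.74. The lysosomal protease gene Ctsd rose by 0.62 (SE 0.11, adjusted p = 0.00105). In all, 3 of the 7 modulators rose, 2 fell and 2 did not pass.

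The 2 insulin receptor substrates, which carry the signal from the receptor, went opposite ways. Irs1 rose by 1.39 (SE 0.24, adjusted p = 6.42e-04), averaging 10.85 ± 0.32 in luminal and 9.46 ± 0.44 in control basal cells. Irs2 was lower in luminal cells, with a difference of -1.82 (SE 0.25, adjusted p = 1.24e-04) and means of 9.64 ± 0.52 in luminal and 11.46 ± 0.34 in control basal cells. Among 8 receptor kin and adaptors 3 rose, among them Grb14 (0.70), 2 fell, among them Sos1 (-0.60), and 3 did not pass. All 5 genes of the growth hormone arm passed, in a comparison where 24.6% of all genes were called higher and 19.7% lower: Stat5a (1.75), Stat5b (1.67) and the kinase Jak2 (1.08) rose, and the receptor gene Ghr (-0.95) and the feedback inhibitor Socs2, named after its value was seen (-0.75), fell. In the PI3K and AKT arm 9 of 11 genes did not pass, with the kinase Pdpk1 (0.45) higher and the transcription factor Foxo1 (-0.84) lower. None of the 4 measured genes in the group of remaining family members and binders of Igf2 RNA passed (limma), and 0 had an unadjusted p under 0.05. Igf2bp1 differed by 0.28 and Igfbp1 by 0.26. The group means of these 4 genes lay between 6.78 and 7.37, little above 6.74. The Pdpk1 call ended without luminal array 3 (adjusted p = 0.0688) and the Sos1 call without luminal array 1 (0.0594).

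**Figure D4:**
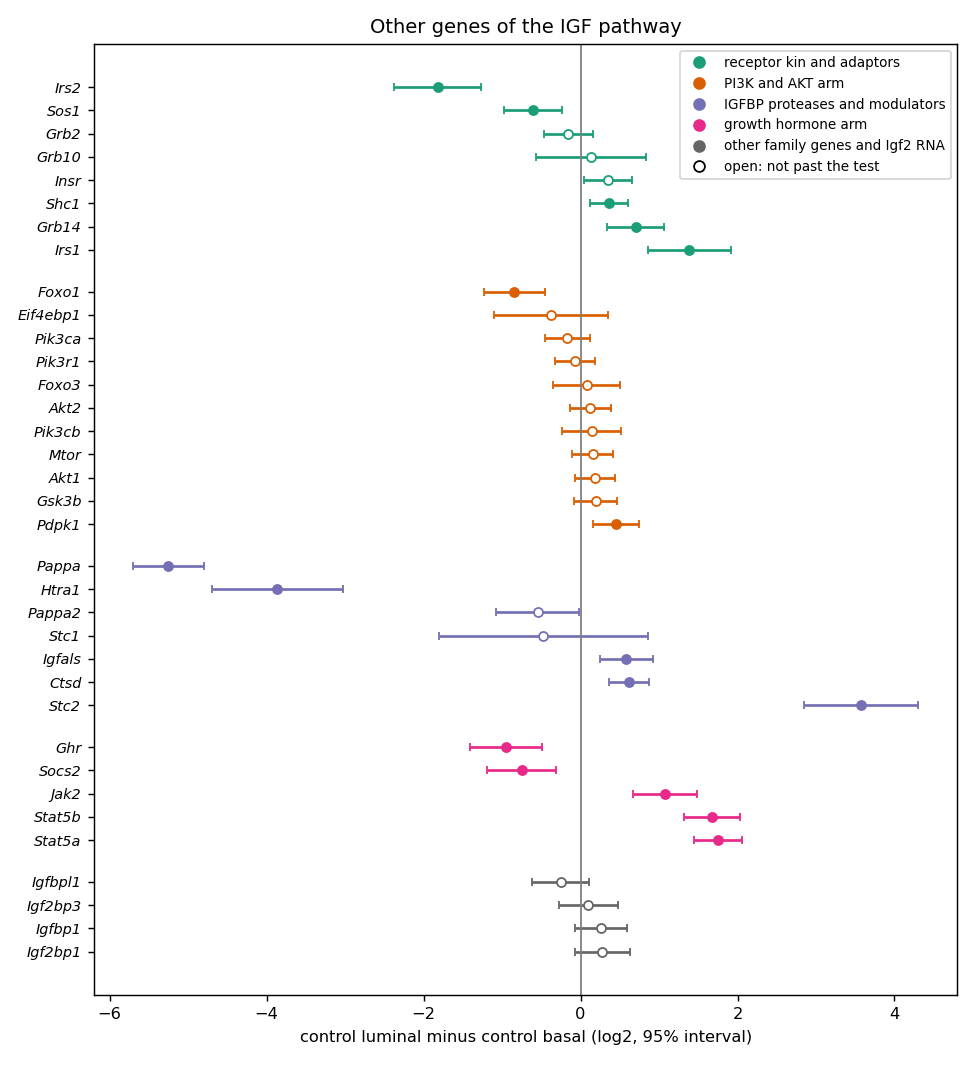
Differences of group means (control luminal minus control basal, log2) with 95% intervals from limma for the 35 tested genes of 5 pathway lists, coloured by list; open points did not pass. Pappa (-5.25), Htra1 (-3.86) and Stc2 (3.58) lie farthest from 0, and most of the PI3K and AKT arm lies close to 0.

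Between SSKO and control basal cells none of the 35 pathway genes was called (limma), and 1, Grb14, had an unadjusted p under 0.05, a share near the 3.03% of all genes. Grb14, an adaptor that binds activated insulin and IGF receptors, differed by 0.45 (SE 0.17, adjusted p = 1.00), with all 3 SSKO arrays above the 4 control basal arrays, as groups did not overlap for 4.46% of all genes. Differences with the smallest p in the other lists were -0.23 for Pik3cb and -0.17 for Pik3ca, 0.22 for Igfals and 0.16 for Ctsd, and -0.17 for Stat5a and -0.11 for Stat5b. Igfbp1 differed by 0.20, Igf2bp1 by 0.13 and Irs1 by -0.27, none past the test. The median over the 35 genes was -0.02.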

How the data were processed

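Per the submitters' processing notes, the tools were Affymetrix Expression Console 1.1 and PLIER 2.0, with no roles given; how arrays were scaled to each other was not stated in the labels used. The deposited table holds 1 linear intensity for each of 28815 probe sets and 10 arrays. Platform annotation gave 1 symbol to 21780 probe sets, several to 1605 and none to 5430; 21689 single symbols were updated through gene IDs. Probe sets without a single symbol were left out.

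Intensities were taken as log2(intensity + 16), which understates changes of dim genes. The dimmest 25% of probe sets by mean (under 6.74) were dropped and the brightest probe set kept per gene. Group means of all 10 arrays were fitted across all 15815 genes with limma 3.58.1 in R 4.3.3 (lmFit, eBayes, 7 residual degrees of freedom), two-sided, with Benjamini-Hochberg adjustment per comparison and calls at an adjusted p under 0.05. The steps were tested on simulated data. Named genes are the 10 members, from each pathway list up to 4 called genes of smallest p or else the 2 of smallest p, and the 2 genes most correlated with each member. Members and lists were chosen with earlier results of these data known. The array number limits the precision. Of the 40 pathway genes, 35 were tested and the others were not analysed here. Alternatives changed the pseudocount, filter, scaling, probe set rule, samples, variance model, weights, block and, for the SSKO comparison alone, covariates. Promoters came from RefSeq (GRCm38.p6); all 10 genes matched by symbol.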

Additional observations from a re-analysis of the deposited data

Results flagged for a closer look

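Igfbp7 in control basal array 1 was 13.38, apart from the other 3 control basal arrays at 13.10 to 13.13 by more than Dixon's test allows in a group of 4. The same array was the brightest control basal array for endothelial markers (9.83). Of 19 measures tested this way in that group 1 stood out, and chance alone would set about 1 in 20 apart. Without this array the difference of Igfbp7 between luminal and control basal cells was -2.90 and that between SSKO and control basal cells was 0.28.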

How the results depend on the processing

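Between luminal and control basal cells, the 8 lower calls and that of Igf2r held under all 21 alternatives, and Igf2 joined them in 4 of these. None of these 21 used a marker level as covariate, since those fits were run just for the SSKO comparison. The pathway list gave 17 calls, and 15 to 18 under alternatives. Between SSKO and control basal cells no member and no pathway gene was called under any of 24 alternatives (lowest adjusted p of a member 0.983), and 25 of 240 member differences changed sign, none of them called; the cause was not tested. With the endothelial marker level as covariate the differences were 0.041 for Igf1r, -0.20 for Igf2, 0.019 for Igf2r, -0.081 for Igfbp3, 0.0028 for Igfbp5 and 0.027 for Igfbp6. With the fibroblast level they were 0.10 for Igf1, -0.019 for Igfbp3 and 0.15 for Igfbp6. Without the 3 basal arrays brightest for endothelial markers, which leaves just 1 SSKO array, they were -0.58 for Igf2, -0.0089 for Igfbp4 and 0.13 for Igfbp5. Quantile normalization gave -0.019 for Igfbp3 and array weights gave 0.020 for Igfbp5. Without 1 array each, differences ran from -0.30 to 0.22 for Igf1, from -0.31 to 0.91 for Igf2, from 0.064 to 0.42 for Igfbp4, from -0.059 to 0.16 for Igfbp3, from -0.077 to 0.086 for Igfbp5 and from -0.35 to 0.090 for Igfbp6. Over all genes, 6 were called in SSKO cells, against 3 after quantile normalization. Leaving out 1 array gave 2 calls without control basal array 2, 1 without SSKO array 3 and 27 without SSKO array 2.

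Same-numbered SSKO and control basal arrays deviated together at r = 0.64, 0.46 and 0.05, and luminal and control basal arrays at -0.08, -0.08 and -0.06. SSKO arrays 1 and 2 correlated best with their own number and SSKO array 3 with control basal array 4 (0.43), so the numbers were not taken as pairs. With the replicate number as a block, 0 members were called in SSKO cells and 10 in luminal cells, where Igf2 differed by -1.21 (adjusted p = 0.0187), and 0 and 17 pathway genes. No signal over background was given, so the depth of dim values is unknown.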
